A study of Bos taurus with 14 samples.

Results

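OAS1X and OAS1Z are bovine genes of the 2'-5'-oligoadenylate synthetase (OAS) family. Their RNA was measured by 1 microarray probe each, chosen by name from the array's annotation, so that the account concerns 2 of the 6701 genes given a symbol. Bovine granulocytes and endometrial stromal cells (BES) were exposed for 2 h to interferon tau (IFNT) or to phosphate-buffered saline (PBS). A dose of 1 mg/mL is stated for IFNT, a high one for a cytokine. The groups were BES with PBS (3 samples), BES with IFNT (3 samples), granulocytes with PBS (4 samples) and granulocytes with IFNT (4 samples), without any stated genotype, breed, age or line. RNA extraction is described for granulocytes alone, and nothing states whether samples of a group came from separate animals or cultures, so errors and p-values measure the spread between these samples.

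OAS enzymes are cytoplasmic sensors of viral RNA. When bound to base-paired RNA they join ATP into short 2'-5'-linked chains, called 2-5A, and these activate the nuclease RNase L, which cuts viral and cellular RNA. Cattle carry several OAS1 copies, named OAS1X, OAS1Y and OAS1Z, in place of the lone OAS1 gene of humans. IFNT is a type I interferon made by the conceptus of ruminants before implantation. OAS1 RNA in blood leukocytes is widely followed in dairy cattle as a sign of an early pregnancy.

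In the RefSeq table of bovine genes (assembly ARS-UCD2.0), OAS2, OAS1Y, OAS1X and OAS1Z followed each other with 0 genes between neighbours, and OASL lay on the same chromosome with 53 genes between it and OAS1Z. The probe for OAS1X is called OAS1 in the scanner files, and its accession is that of OAS1X. The same RefSeq table lists OAS1 as another name of OAS1Z, so a lookup by symbol alone would have given this probe to OAS1Z, against its accession. The probe sequences are shown because the results for each paralogue rest on 1 probe. Capitals mark the longest run of bases that both probes hold, which was 6 bases long.
OAS1X: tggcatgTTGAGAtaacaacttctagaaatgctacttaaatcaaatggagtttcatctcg
OAS1Z: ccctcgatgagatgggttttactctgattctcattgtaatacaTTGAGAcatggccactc
Both probes were 60 bases long, with a GC content of 35% for OAS1X and 43.3% for OAS1Z. In their best alignment without gaps, 24 positions matched. The longest run that the OAS1X probe shared with any other probe of the array was 13 bases, and for the OAS1Z probe it was 12 bases. No probe was named for OAS1Y. The match of the probes to the transcripts of OAS1X, OAS1Y and OAS1Z was not tested, so each probe's name is that of its accession.

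The signal's 75th percentile lay at an intensity of 2564 to 3173 in BES and of 1009 to 1491 in granulocytes, and 66.4% to 76.1% of probes per array were well above background by the scanner software's call. Each cell type had its own slide, so that a slide effect cannot be told apart from a cell type effect. On the granulocyte slide all PBS samples lay in array row 1 and all IFNT samples in array row 2, so array row and treatment cannot be told apart there. Among BES samples, row 1 held PBS samples 1 and 2, and row 2 held PBS sample 3 with the IFNT samples. All 8 granulocyte markers with a probe were well above background in every granulocyte sample, with a summed level of 806 to 1014 under PBS and 829 to 910 under IFNT, in units of the array's 75th percentile. In BES that sum was 0.815 to 0.963, and CXCR1, FCGR3A and CATHL2 were not well above background. All 9 stromal markers with a probe were well above background in BES, with sums of 181 to 188, against 25.3 to 27.4 in granulocytes, where COL1A2, COL3A1 and LUM were not. BES also gave signal for 4 of 5 epithelial markers (KRT8, KRT19, CDH1 and MUC1), with sums of 207 to 235, while EPCAM was not well above background.

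OAS1X changed from not well above background in unstimulated BES to well above background on every other group of arrays. In BES with PBS its processed intensity was 3.06, 2.52 and 4.89, which are substitute values that the scanner software gives to spots at background. With IFNT the intensities were 2018, 1882 and 1796, against a lowest signal well above background of 14.7 to 18.6 on those arrays. All 3 IFNT arrays were thus above all 3 PBS arrays.

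In granulocytes the OAS1X probe was bright before any interferon was added. Under PBS its intensities were 5395, 7632, 7060 and 7737. Under IFNT they were 32533, 37415, 36349 and 38025, and no spot was marked as saturated. Every granulocyte array exceeded every BES array, and every granulocyte array with IFNT exceeded every granulocyte array with PBS.

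Levels were then expressed as log2 of the processed signal minus the log2 of the array's 75th percentile, so that 0 is that percentile itself. On this scale OAS1X stood at −0.65 ± 0.12 (SD, n = 3) in BES with IFNT, at 2.43 ± 0.08 (SD, n = 4) in granulocytes with PBS and at 4.90 ± 0.11 (SD, n = 4) in granulocytes with IFNT. The order of the OAS1X levels was therefore BES with PBS, BES with IFNT, granulocytes with PBS and granulocytes with IFNT, and no neighbours in it overlapped.

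OAS1Z followed another course, since it was not well above background on any BES array. Its processed intensity was 3.06, 2.52 and 4.89 in BES with PBS and 3.51, 2.98 and 3.79 in BES with IFNT, again substitute values. Before substitution, the background-subtracted intensities were −3.81, −2.73 and −5.68 under PBS and −0.25, 0.92 and 0.56 under IFNT. The IFNT arrays were all above the PBS arrays, as they were for 3.16% of the 3168 probes not well above background on any BES array. All 6 values lay below the brightest of the 77 negative control spots on the same array, whose signal was 4.94 to 67.5. No change of OAS1Z in BES was detectable at this signal.

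In granulocytes the OAS1Z probe was dim but well above background on all 8 arrays. Its intensities were 52.1, 63.6, 67.1 and 60.6 with PBS, against a lowest signal well above background of 20.8 to 24.1. With IFNT they were 237, 201, 180 and 196. The groups did not overlap, and the log2 levels were −4.40 ± 0.21 (SD, n = 4) with PBS and −2.58 ± 0.17 (SD, n = 4) with IFNT. For OAS1Z the order was thus both BES groups, without an order between them, then granulocytes with PBS and granulocytes with IFNT.

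**Figure D1:**
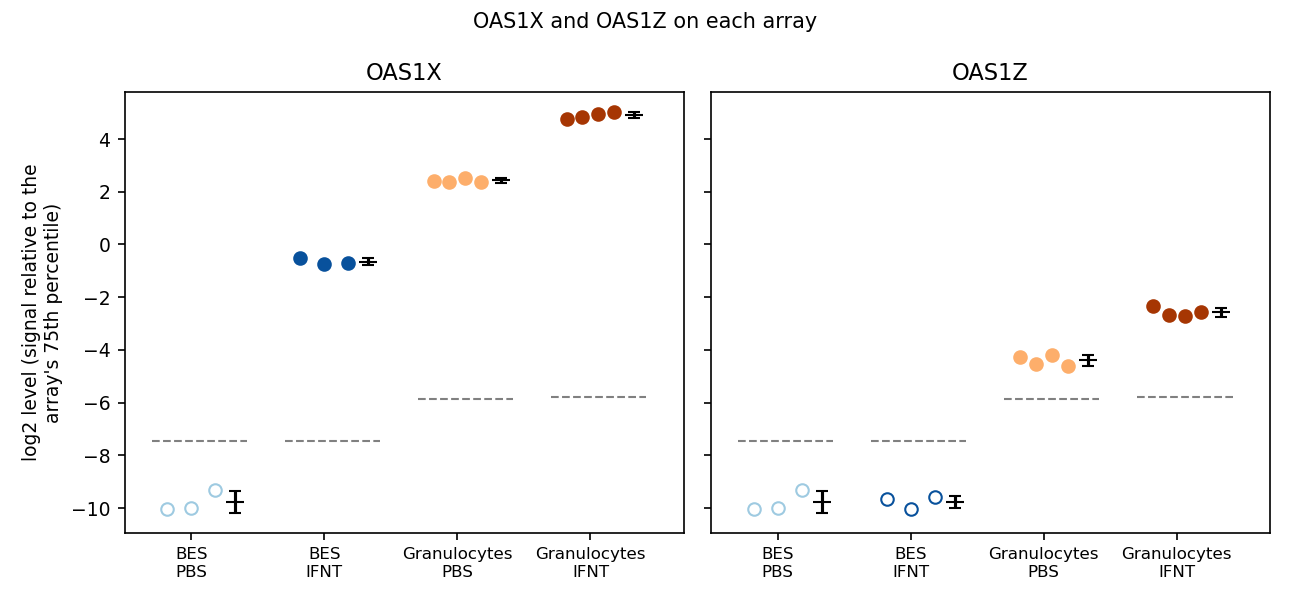
Log2 level of OAS1X (left) and OAS1Z (right) on each of the 14 arrays, relative to the array's 75th percentile, in the 4 groups. Filled points are well above background, open points are not, black bars are mean ± SD, and dashed lines are the group mean of the lowest signal well above background. OAS1X leaves background in BES with IFNT, OAS1Z stays at background on all 6 BES arrays, and both rise in granulocytes. Brightness differs between probes, so heights are not compared between panels.

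The first comparison asked how BES responded to IFNT within 2 h. OAS1X was at least 113-fold higher with IFNT, a log2 change of at least 6.83, when the IFNT mean was set against the lowest signal well above background on the PBS arrays. The fitted log2 change was 9.12 ± 0.20 (SE), with an adjusted p of 2.3e-06 in limma, and it depends on the substitute values. Background correction by normexp, which adds an offset of 50 to every signal, gave 4.88 (adjusted p = 2.8e-09), below that bound. This bound and those that follow hold only for the scanner software's background correction. Within array row 2, where PBS sample 3 and the IFNT samples lay, the log2 difference was 8.65 (adjusted p = 1.6e-05 with row as a covariate). Of 11309 probes tested, 259 rose, which is 2.29%. The fitted rise of OAS1X ranked 1 among them, but its lower bound is smaller than the fitted changes of ISG15 (8.42 ± 0.10) and MX1 (6.87 ± 0.08), which were measured above background on every BES array, so its rank is not settled. Summed levels of the stromal markers were 181 to 184 with PBS and 186 to 188 with IFNT, and B cell markers 0.506 to 0.557 and 0.454 to 0.479. Their part in the result was not tested.

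The same comparison in granulocytes gave a rise for both paralogues. OAS1X rose by 2.47 ± 0.07 (SE) on the log2 scale, which is 5.53-fold, with an adjusted p of 2.4e-08 in limma and a 95% confidence interval of 2.31 to 2.63. OAS1Z rose by 1.82 ± 0.12, which is 3.54-fold (adjusted p = 5.0e-06 in limma), with an interval of 1.55 to 2.10. Rises were called for 17.2% of the 10379 probes tested, and falls for 27.4%. Among the fitted rises OAS1X ranked 84 and OAS1Z 166. The OAS1Z value was 1.09 (adjusted p = 3.3e-05) with normexp background correction, while that of OAS1X was 2.45.

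Granulocyte preparations can hold other leukocytes, and fewer cells of a type cannot be told apart from less RNA per cell in such samples. All 4 monocyte or macrophage markers with a probe (CD14, CD68, C1QB and C1QC) were well above background, with summed levels of 28.2 to 30.8 under PBS and 26.5 to 27.5 under IFNT. Both eosinophil markers with a probe (CCR3 and ALOX15) were too, with sums of 13.7 to 14.5 and 10.6 to 12.1. B cell markers summed to 2.33 to 2.45 and 2.51 to 2.62 over 3 probes. T or NK cell markers summed to 3.41 to 3.53 and 3.28 to 3.54 over 7 probes, so those ranges overlapped. Platelet or erythroid markers (2.42 to 2.67 and 2.40 to 2.50 over 4 probes, HBB at background) and endothelial markers (0.0454 to 0.0707 and 0.0489 to 0.0732 over 4 probes, VWF and CDH5 at background) overlapped as well. The part of these cells in the OAS1X and OAS1Z values was not tested.

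The response of OAS1X was smaller in granulocytes than in BES. The fitted difference between the responses was −6.66 ± 0.21 (SE), with an adjusted p of 6.2e-10 in limma over 12046 probes. Both the difference and its p rest on the substitute values in BES with PBS. The IFNT change was called lower in granulocytes than in BES, whatever its sign, for 14.8% of the probes tested. Computed with the lower bound for BES, the rise was at least 20.5-fold smaller in granulocytes, a log2 difference of at least 4.36. With normexp the fitted difference was −2.43 (adjusted p = 1.3e-09). For OAS1Z no such difference can be given, because its BES change could not be measured.

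The cell types already differed without IFNT. Under PBS, OAS1X was at least 955-fold higher in granulocytes than in BES (a log2 difference of at least 9.90, with a fitted value of 12.20 and 7.88 with normexp). OAS1Z was at least 8.41-fold higher under PBS (log2 at least 3.07, with a fitted value of 5.37 and 2.20 with normexp) and at least 29.6-fold higher when both cell types had IFNT. Adjusted p-values under PBS in limma were 3.6e-16 for OAS1X and 7.2e-12 for OAS1Z. The fitted values and these p-values rest on substitute values in BES, the same for both genes, whose spread is not that of either gene. Of the 12046 probes, 46.7% were called higher in granulocytes under PBS.

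OAS1X was also compared between granulocytes that had received no IFNT and BES that had, both of which were measured above background. Unstimulated granulocytes were higher by 3.07 ± 0.15 (SE) on the log2 scale, or 8.42-fold, with an adjusted p of 2.6e-10 in limma. Every granulocyte array with PBS lay above every BES array with IFNT, and 47.4% of probes were called higher in this comparison. The scaling of each array to its own 75th percentile bears on all comparisons between the cell types, and median scaling gave 2.94.

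Whether both paralogues changed alike in granulocytes was asked within each array, by subtracting the log2 signal of OAS1Z from that of OAS1X. Relative to the mean of the PBS arrays, this difference was −0.14, 0.08, −0.11 and 0.17 on the PBS arrays and 0.27, 0.71, 0.83 and 0.77 on the IFNT arrays. All 4 IFNT arrays lay above all PBS arrays. OAS1X thus rose more than OAS1Z by 0.65 ± 0.15 (SE) on the log2 scale, or 1.56-fold (two-sided exact permutation test, p = 0.0286, the smallest that 70 arrangements allow). With normexp the difference was 1.36 with the same p from the exact permutation test. Normexp adds an offset of 50 to every signal. Under PBS the intensities were 52.1 to 67.1 for OAS1Z and 5395 to 7737 for OAS1X. The fitted rise of OAS1Z went from 1.82 to 1.09 with it, and that of OAS1X from 2.47 to 2.45. The value of 1.36 thus depends on that offset. How far the unequal brightness of the probes shaped the difference of 0.65 was not tested. Without any 1 of the PBS samples the difference was 0.60 to 0.70 and the exact permutation p was 0.0571, although all IFNT arrays still lay above the remaining PBS arrays. Without any 1 of the IFNT samples it stayed at 0.0286 (exact permutation test).

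**Figure D2:**
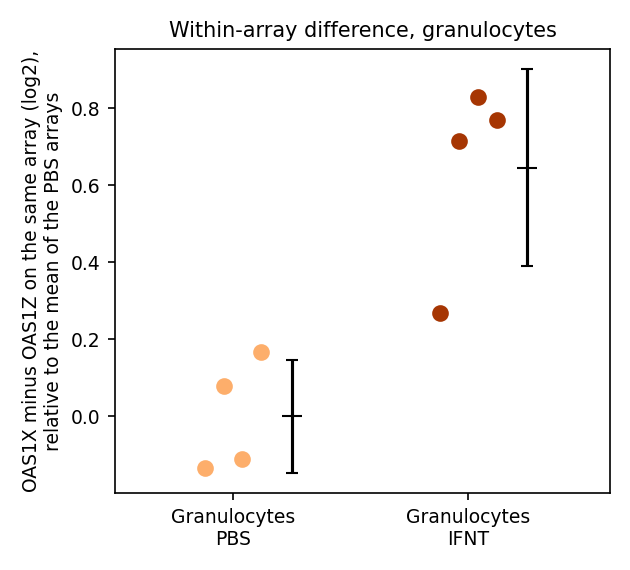
Difference between the log2 signals of OAS1X and OAS1Z on the same array, relative to the mean of the 4 granulocyte arrays with PBS. Points are arrays and black bars are mean ± SD. The IFNT arrays lie at 0.27 to 0.83, above the highest PBS array at 0.17.

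The family could be followed with 2 further probes, for OAS2, a synthetase with a doubled catalytic unit, and for OASL, a family member without synthetase activity in humans. In granulocytes OAS2 rose by 2.52 ± 0.08 (adjusted p = 4.7e-08 in limma), with intensities of 817 to 1307 under PBS and 4897 to 6427 under IFNT. OASL changed least, from intensities of 99.1 to 133 under PBS to 124 to 143 under IFNT, which overlap. After scaling, its log2 levels were −3.72 to −3.35 under PBS and −3.25 to −3.15 under IFNT and did not overlap. Its log2 change was 0.27 ± 0.08 with an adjusted p of 0.0257 in limma. That call was lost without a filter on dim probes (adjusted p = 0.0557), with all 14 arrays in the fit (0.137), and without PBS sample 2 (0.0558) or IFNT sample 1 (0.0530), 2 (0.0601) or 4 (0.0678).

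The 6 pairs of these 4 genes were compared within arrays in the same way, with p-values adjusted over the 6 pairs. The changes of OAS1X and OAS2 differed by −0.05 ± 0.14 (SE), with an exact permutation p of 0.743. OAS1Z rose less than OAS2 by a log2 difference of −0.69 ± 0.18. Compared with OASL, the rise was larger by 2.20 ± 0.09 for OAS1X, by 1.55 ± 0.10 for OAS1Z and by 2.24 ± 0.14 for OAS2. Each of these and the pair of OAS1X and OAS1Z had an exact permutation p of 0.0286, adjusted to 0.0343, and in each all 4 IFNT arrays lay beyond all PBS arrays.

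In BES, OAS2 repeated the pattern of OAS1X at a lower signal. Its intensities were 7.48, 2.52 and 4.89 with PBS, not well above background, and 31.9, 38.2 and 43.6 with IFNT, all well above it. It was at least 2.25-fold higher with IFNT, set against the lowest signal well above background on the PBS arrays. The brightest negative control spot reached 9.21 to 67.5 on the PBS arrays and 4.94 to 14.8 on the IFNT arrays. The fitted log2 change was 3.04 ± 0.31 (adjusted p = 0.0040 in limma), or 0.59 with normexp. The value of 3.04 depends on PBS signals at background, of which 2.52 and 4.89 are substitute values. Without a filter on dim probes its adjusted p in limma was 0.0230. With array row as a covariate the change was 3.00 and its adjusted p in limma was 0.0727. OASL was not well above background on any BES array, as was the case for OAS1Z.

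**Figure D3:**
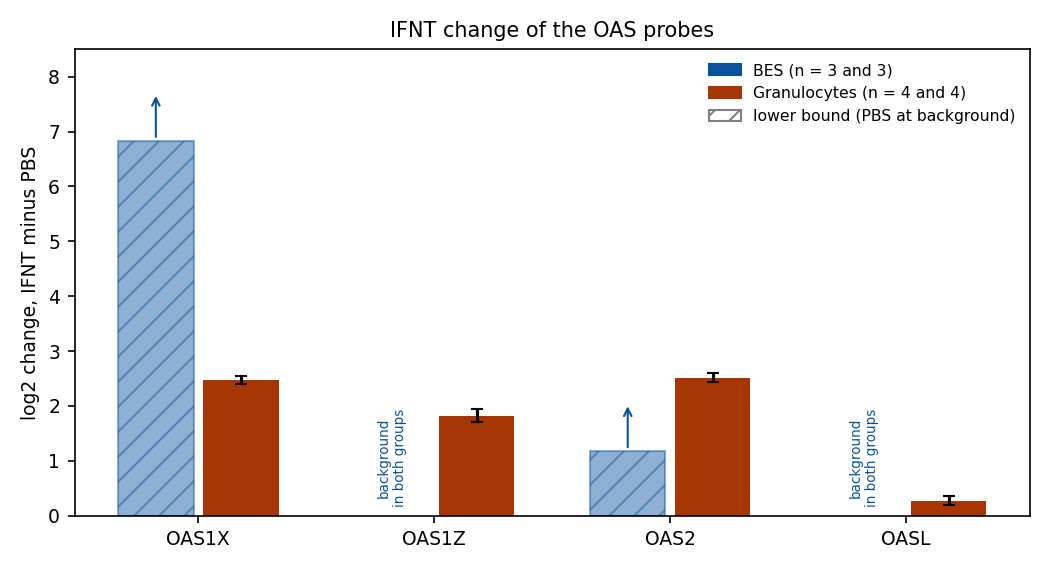
Log2 change with IFNT of the 4 OAS probes in BES (blue, n = 3 and 3) and granulocytes (brown, n = 4 and 4). Solid bars are fitted changes ± SE, and hatched bars with arrows are lower bounds where the PBS group was at background. OAS1Z and OASL have no bar in BES, where they were at background in both groups, and OASL changes least in granulocytes.

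Other genes were taken from a list of 10 drawn up for the 2-5A pathway, of which 5 had a named probe. In BES 3 were tested and 3 rose, where 2.29% of all probes rose, and their median log2 change was 0.47 against −0.02 over all probes tested. OAS2 was among them and passed the filter on dim probes through its IFNT arrays alone. OASL and ABCE1 were not well above background on any BES array and were not tested there. The count in BES is thus partly set by the filter. In granulocytes 4 were tested and 4 rose, where 17.2% of all probes rose, with a median of 2.36 against −0.05. PDE12, a phosphodiesterase that degrades 2-5A and so ends its signal, rose by 2.56 ± 0.08 in granulocytes (adjusted p = 3.6e-08 in limma) and by 0.26 ± 0.05 in BES (adjusted p = 0.0411). CNP, a phosphodiesterase that acts on cyclic nucleotides, rose by 2.20 ± 0.05 in granulocytes (adjusted p = 8.0e-09) and by 0.47 ± 0.05 in BES (adjusted p = 0.0059). It was counted in this list, and its BES value is the list's median there.

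The PDE12 call in BES was lost when any of the 6 BES samples was left out (adjusted p = 0.0588 to 0.136 in limma), and with array row as a covariate none of the 3 rises in BES passed, at log2 changes of 3.00 for OAS2, 0.52 for CNP and 0.23 for PDE12. For PDE12 and CNP, unlike for OAS1X, the response was larger in granulocytes than in BES, by 2.30 ± 0.10 (adjusted p = 1.1e-08) and 1.73 ± 0.07 (adjusted p = 5.9e-09). These were 2 of the 4 list members tested for this difference. No difference was called for OAS2 (−0.52 ± 0.31, adjusted p = 0.260 in limma) or OASL (0.23 ± 0.22, adjusted p = 0.507). Both of those values rest on BES signals at background. A higher IFNT change in granulocytes than in BES, whatever its sign, was called for 11.7% of probes. ABCE1, an inhibitor of RNase L, was not well above background on any array.

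OAS1X and OAS1Z lie downstream of the interferon receptor and its transcription factor complex. Of 10 genes for these steps, 6 had a probe, and 4 rose in BES, against 2.29% of all probes (median log2 change 1.37 against −0.02). In granulocytes 4 rose and 1 fell, against 17.2% and 27.4% of all probes (median 1.42 against −0.05). USP18, which restrains the receptor, rose by 4.23 ± 0.09 in BES and 3.98 ± 0.09 in granulocytes. IRF9, the DNA-binding part of the complex, rose by 2.89 ± 0.05 and 1.03 ± 0.05. The gene that fell was the receptor chain IFNAR2, by 0.43 on the log2 scale in granulocytes, with an adjusted p of 0.000101 in limma.

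Sensors and effectors other than OAS that respond to base-paired RNA were given by 6 probes from a list of 9. In BES 4 rose, against 2.29% of all probes (median log2 change 1.23 against −0.02). In granulocytes 4 rose, against 17.2% of all probes (median 1.16 against −0.05). RIGI, a cytoplasmic RNA helicase, rose by 3.91 ± 0.06 in BES and 2.39 ± 0.06 in granulocytes. DHX58, a related helicase, rose by 3.62 ± 0.09 and 3.34 ± 0.11, and EIF2AK2, the kinase that stops translation, by 1.91 ± 0.09 and 1.93 ± 0.06.

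Among 8 classical interferon-induced genes, 7 rose in BES, against 2.29% of all probes (median log2 change 5.39 against −0.02). In granulocytes 8 rose, against 17.2% (median 2.52 against −0.05). RTP4 rose by 5.64 ± 0.08 in BES and 4.87 ± 0.04 in granulocytes, RSAD2 (viperin) by 6.10 ± 0.17 and 4.70 ± 0.10, and IFIT5 by 2.09 ± 0.04 and 2.64 ± 0.05. The gene that did not pass in BES was MX2, at 0.65 ± 0.24 (adjusted p = 0.168 in limma).

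Genes with the pattern most like each paralogue were found by the root mean square (RMS) difference of log2 levels over the 14 arrays, after each probe's mean was subtracted. The 5916 named probes well above background on at least 3 arrays were compared. The 5 nearest to OAS1X were ISG15 (RMS 0.61), MX1 (1.06), IFIT3 (1.36), GBP4 (1.51) and XAF1 (1.87). ISG15, a ubiquitin-like modifier, had mean log2 levels of −4.03, 4.39, 7.60 and 9.05 in BES with PBS, BES with IFNT, granulocytes with PBS and granulocytes with IFNT, and its spots were saturated on all 4 arrays of the last group. MX1, a dynamin-like antiviral GTPase, had −4.64, 2.23, 4.99 and 7.40 in the same order. As for OAS1X, the means of all 5 genes increased in this order of the groups. They were chosen for their likeness to OAS1X, so this shared order is no separate result. Under PBS, GBP4 was at background in BES, as was OAS1X, and its name rests on a description as similar to the human gene.

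The 5 nearest to OAS1Z were HORMAD1 (RMS 0.42), DCK (0.43), LGALS9 (0.46), P2RY14 (0.47) and ABTB2 (0.48). None of them is in the short lists of interferon genes used here, but the means of all 5 were higher with IFNT than with PBS in granulocytes. The mean log2 level there went from −3.92 to −2.47 for HORMAD1, from −5.41 to −3.19 for LGALS9 and from −5.15 to −2.47 for P2RY14. The genes were chosen for their likeness to OAS1Z, so these rises are no separate result. HORMAD1, LGALS9 (galectin-9) and P2RY14 (a receptor for sugar nucleotides) were, like OAS1Z, not well above background on any BES array, where their values are substitutes or close to them. DCK, the kinase that phosphorylates deoxycytidine, and ABTB2 were well above background in every BES sample. DCK had mean log2 levels of −4.46 and −4.24 in BES and of 1.39 and 2.20 in granulocytes with PBS and IFNT, and ABTB2 had −2.25, −2.24, 2.50 and 3.97. The names of P2RY14 and ABTB2 rest on descriptions as similar to the human genes, and LGALS9 was well above background on 3 of 4 granulocyte arrays with PBS.

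**Figure D4:**
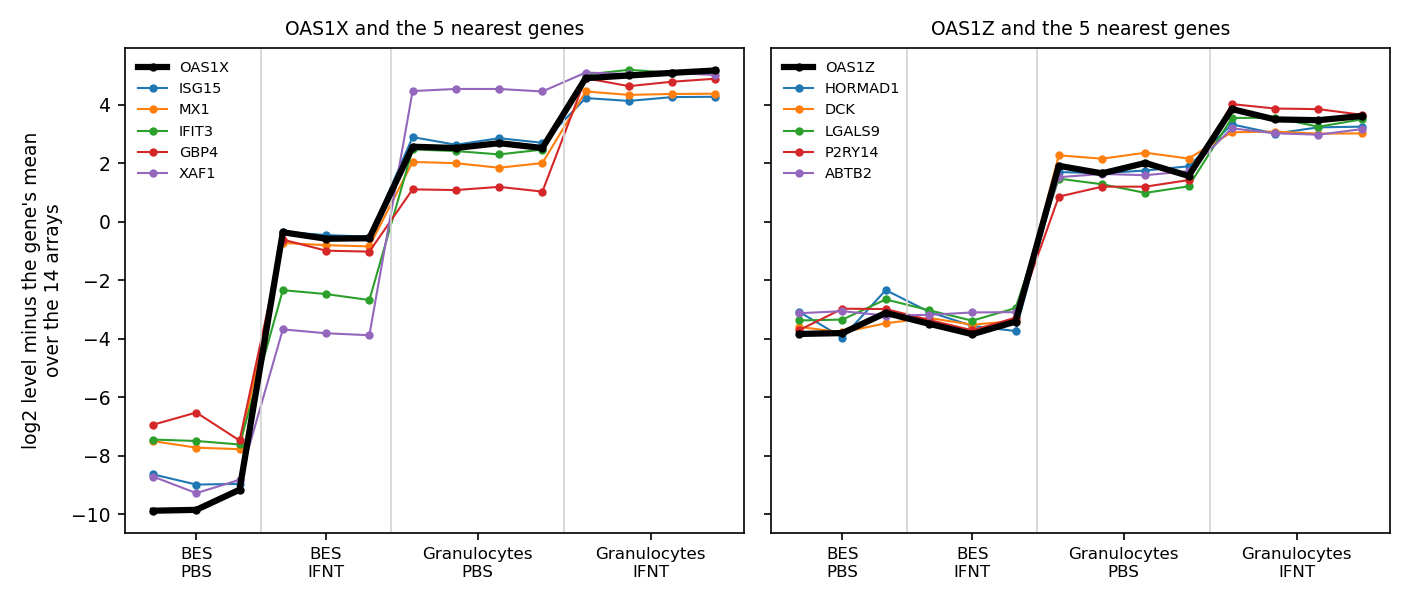
Log2 level minus the gene's mean over the 14 arrays, for OAS1X (left, black) and OAS1Z (right, black) with the 5 genes nearest to each, by array within the 4 groups. OAS1X and its neighbours rise from BES with PBS to BES with IFNT. In both panels the group means of all genes are higher in granulocytes than in BES, and higher with IFNT than with PBS in granulocytes. The neighbours were chosen for this likeness, so their shared course is no separate result. The lowest values of OAS1X, GBP4, OAS1Z, HORMAD1, LGALS9 and P2RY14 in BES are at background.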

How the data were processed

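Each sample was labelled with Cy3 from 400 ng of total RNA and hybridised to 1 Agilent array of 15208 non-control probes. Per the file headers and the submitters' processing notes, the deposited scanner files hold spot intensity from Agilent Feature Extraction 9.5, whose processed signal is background-corrected and carries flags for well above background and saturation. The deposited value table holds log2 values, each column being the log2 processed signal minus a constant. Further steps of the authors are not given in the sources used here.

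Processed signals were put on the log2 scale and scaled to each array's 75th percentile. Outlier spots were left out. Probes well above background on at least 3 (BES) or 4 (granulocytes) arrays were tested with limma 3.58.1 in R 4.3.3, two-sided, with Benjamini-Hochberg adjustment and a threshold of 0.05. The scripts were tested on simulated data. Lower bounds set the mean of the brighter group against the lowest signal well above background on each array of the dimmer one. Differences between probes within arrays used exact permutation tests. The number of arrays limits the precision.

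Genes were named through the bovine RefSeq table by accession (2514 probes), gene number (2017), symbol (1295), synonym (292) or stated similarity (904), and 8186 probes stayed unnamed. Both members, all tested members of the 2-5A list, up to 3 members of each other list with the smallest unadjusted p, and the 5 genes nearest in pattern to each member were named. Of these, 1 list member is not reported here, though the counts and medians of its list include it. ISG15 and MX1 are named in the BES comparison, and IFNAR2 and MX2 as exceptions in their lists, after their values were seen. The members and lists were chosen with earlier results of these data known. The comparison of unstimulated granulocytes with IFNT-treated BES and the tests of the other 5 gene pairs were added after seeing the data. Replicate numbers were not taken to pair the samples: deviations of same-numbered samples correlated at −0.01 to 0.06 in BES and at 0.14, 0.18, 0.20 and −0.12 in granulocytes, so not every pair exceeded 0.1.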

Additional observations from a re-analysis of the deposited data

Results flagged for a closer look

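The IFNT change of OAS1X differed between the cell types by a fitted log2 difference of −6.66 ± 0.21 (granulocytes minus BES, adjusted p = 6.2e-10 in limma), with all 3 BES and all 4 granulocyte arrays with IFNT above those with PBS. The size and the p-value rest on substitute values in BES with PBS, and with the lower bound for BES the log2 difference was at least 4.36 in size. Each cell type had its own slide, and the effects of slide and cell type on this difference cannot be told apart.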

How the results depend on the processing

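Of 121 alternatives to the 7 main values for OAS1X and OAS1Z, 116 kept the direction and the side of the threshold, and 0 reversed a direction. The exceptions all concern the larger rise of OAS1X than OAS1Z in granulocytes (0.65). Leaving out 1 sample gave 0.58 to 0.77, with an exact permutation p of 0.0571 without a PBS sample and 0.0286 without an IFNT sample. With replicate number as a block the difference was 0.65 and the exact sign-flip p was 0.125, the smallest that 4 pairs allow. The samples share only a number, and the block changed no other call for either gene, though it took PDE12 in BES to an adjusted p of 0.0950 and OASL in granulocytes to 0.0561. Fitted values in limma for probes at or near background moved with normexp correction, as given above, and quantile normalization gave −5.98 for the difference between the OAS1X responses. The BES bound for OAS1X was 6.70 to 7.06 over its alternatives on the log2 scale. The number of probes past the threshold in BES was 414, of which 259 rose. It was 189 (163 rises) without a filter on dim probes, 1011 (432) with an intensity trend and robust prior, 149 (129) with array row as a covariate, and 183 to 215 when 1 of 5 samples (all but PBS sample 3) was left out. PDE12 in BES also lost its call without a filter (adjusted p = 0.119) and with all 14 arrays in the fit (0.0835). OAS1Z in BES has no value under any alternative because all 6 arrays were at background, array row could not be fitted in granulocytes, and the block could not be fitted for levels between cell types. In BES, signal over background left OAS1Z and OASL without a measured level, and OAS1X and OAS2 without one under PBS.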
